A study of Mus musculus with 2 samples.

Results

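The 34 genes described here comprised 24 immediate early genes and 10 heat shock genes, chosen as a list of symbols, and all 34 were found among the 31053 genes measured. They were read in 9798 cells that held 500 to 15000 UMIs (unique molecular identifiers, 1 for each captured transcript), 200 to 4000 genes and at most 10% mitochondrial UMIs, of 11651 cells called. The cells were leukocytes positive for the surface marker CD45, sorted alive on day 4 from Braf-mutant melanomas in 8 weeks old C57BL/6 hosts. In both groups the tumor line was deficient in Ptgs, which encodes the cyclooxygenases of prostaglandin synthesis. Control hosts were untreated, and NK cell-depleted hosts had received anti-NK1.1 (clone PK136, 200 µg) with anti-asialo GM1 (30 µg) on days 0 and 2. Each group was 1 library of pooled tumors, so differences between the libraries could not be set against a spread between replicates and were not tested. The sample titles name the tumors KO while the genotype field of both samples reads wildtype, and the titles and the series' design were followed.

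Immediate early genes are transcribed within minutes of a signal from pre-existing factors, with no new protein needed, and many encode transcription factors or the proteins that shut the signal down again. Heat shock genes encode chaperones that refold or hold damaged proteins, and their inducible members are switched on by the factor HSF1 after heat or other protein stress. Both groups are also known to respond to warm enzyme digestion of tissue, and these tumors were digested with collagenase before sorting. Parental melanoma cells, grown in culture, were added to both samples after the sort, so that they met the chip and the library steps but not the digestion.

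Cell classes were called from marker genes after clustering without the 34 genes and the lists related to them. The control library kept 5292 cells with 24810009 UMIs and the NK cell-depleted library 4506 cells with 23245982 UMIs, with a median of 4170 and 4893 UMIs a cell. Monocyte/macrophage-like cells were the largest class, with 3001 control and 2856 NK cell-depleted cells. NK-like cells numbered 542 in the control library and 1 in the NK cell-depleted library, the direction given by the labels. Of the 21 clusters 4 stayed unnamed, and 7 of the barcodes called were present in both libraries, 5 of them among the kept cells. Levels are given as CPM, the UMIs of a gene scaled to 1000000 UMIs of the class, with exact Poisson intervals in brackets where shown. Differences are the log2 of control over NK cell-depleted CPM with exact 95% counting intervals, which cover counting error only. In these sums fewer expressing cells and less RNA per expressing cell cannot be told apart, except where single cells are counted.

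The DNA just upstream of 8 of the genes is shown first, because motifs bound by the activating factors of both groups are known from such stretches. All sequences are from RefSeq on GRCm38.p6, on the strand of the gene, 5′ to 3′. The pair Hspa1a and Hspa1b, the inducible Hsp70 genes, lies on chromosome 17 at chr17:34972157-34972306 and chr17:34959239-34959388, minus strand, 12918 bases apart, and 247 of the 250 aligned upstream bases were identical (98.8%). Capitals mark GAANNTTC, a core of the heat shock element.
Hspa1a: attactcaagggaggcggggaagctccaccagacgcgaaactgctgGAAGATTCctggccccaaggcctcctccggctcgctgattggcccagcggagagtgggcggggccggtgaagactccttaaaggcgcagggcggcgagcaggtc
Hspa1b: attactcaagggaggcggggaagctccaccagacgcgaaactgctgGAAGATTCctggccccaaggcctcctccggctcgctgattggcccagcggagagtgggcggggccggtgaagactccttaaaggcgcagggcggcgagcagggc
The transcripts of the pair were not compared, so how far the counting kept their reads apart is not known, and their separate values are uncertain. Hspe1 and Hspd1, which encode the partner subunits of the mitochondrial chaperonin, start 95 bases apart on chromosome 1 in opposite directions, and 30 bases at chr1:55088056-55088085, plus strand for Hspe1, held both orders of the core, GAANNTTC and TTCNNGAA. In GENCODE M21 this stretch lies in the first exon of Hspd1.
Hspe1: ccgTTCTAGAACCTTCCGGAAggccccgcg
The immediate early genes Dusp1 (chr17:26508520-26508622, minus), Nr4a2 (chr2:57124004-57124153, minus), Junb (chr8:84978749-84978898, minus) and Fos (chr12:85473740-85473889, plus) held the cAMP response element TGACGTCA or its first 5 bases TGACG, in capitals on either strand. Jun (chr4:95052223-95052372, minus) held neither.
Dusp1: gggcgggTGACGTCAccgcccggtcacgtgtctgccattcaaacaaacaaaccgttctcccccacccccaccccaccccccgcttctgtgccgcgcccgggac
Nr4a2: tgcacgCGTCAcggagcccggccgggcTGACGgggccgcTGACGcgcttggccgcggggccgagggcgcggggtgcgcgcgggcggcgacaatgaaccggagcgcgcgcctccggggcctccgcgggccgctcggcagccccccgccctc
Junb: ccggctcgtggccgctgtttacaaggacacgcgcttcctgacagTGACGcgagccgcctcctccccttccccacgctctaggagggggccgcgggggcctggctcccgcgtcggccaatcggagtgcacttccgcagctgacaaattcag
Fos: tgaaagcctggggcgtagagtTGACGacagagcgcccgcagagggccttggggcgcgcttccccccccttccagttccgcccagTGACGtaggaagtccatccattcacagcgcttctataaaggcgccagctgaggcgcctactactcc
Jun: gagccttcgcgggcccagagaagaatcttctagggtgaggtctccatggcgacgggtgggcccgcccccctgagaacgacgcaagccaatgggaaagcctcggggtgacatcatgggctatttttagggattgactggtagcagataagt

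Of the 34 genes 27 had a promoter entry, and both strands of the 250 bases before each start were searched, a gene counting once if any of its starts held the letters. The letters TGACG stood before 12 of 20 immediate early genes and 3 of 7 heat shock genes, against 19.8% of 27025 genes with a promoter entry. The full element TGACGTCA stood before 2 of 20 (Btg2 and Dusp1), against 1.77% of genes. GAANNTTC stood before 5 of 7 heat shock genes (Hspa1a, Hspa1b, Dnaja1, Hspe1 and Hspd1) and 2 of 20 immediate early genes, against 7.73% of genes. TTCNNGAA stood before 3 of 7 heat shock genes and 1 of 20 immediate early genes, against 8.11%. The serum response motif known as the CArG box stood before 3 of 20 immediate early genes (Egr2, Dusp5 and Zfp36), against 1.62% of genes, and TATAA before 8 of 20, against 25.8%. TGANTCA, the AP-1 motif, stood before none of the 27, against 7.82%. The 12 immediate early genes with TGACG had a median log2 difference of -0.32 between the libraries in monocyte/macrophage-like cells and the 8 without it -0.45, and the 2 with the full TGACGTCA had -0.49 against -0.32 for the 18 without it. The shorter and the full motif thus went in opposite directions. A match of letters is a description, and TGACG is part of TGACGTCA.

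The AP-1 subunits, which pair to form a transcription factor at the end of growth factor and stress kinase cascades, were highest as a sum in neutrophil-like cells of the control library, at 20903 CPM. In the NK cell-depleted library eosinophil-like cells held 24397 and neutrophil-like cells 22821. Fos stood at 7326 CPM [7067, 7592] in neutrophil-like cells of the control library and at 7290 [7075, 7509] in the NK cell-depleted library. The next class was monocyte/macrophage-like cells, at 2966 [2939, 2993] and 3463 [3434, 3492], followed by conventional DC-like cells at 2630 and 3325. T-like cells held 1269 and 1172 CPM of Fos, migratory DC-like cells 596 and 767, and B-like cells 289 and 404. NK-like cells of the control library held 420 [387, 457], and melanoma-like cells 132 [80.6, 204] and 58.7 [34.8, 92.7]. These were the 53 and 71 shallow melanoma-like cells within the upper limits, as in the class levels of the other genes. Without the upper limits Fos stood at 13.8 and 16.1 CPM in 161 and 298 melanoma-like cells. Junb stood at 9146 CPM in neutrophil-like cells of the control library and 3101 in T-like cells, the next class. In the NK cell-depleted library it stood at 11109 in eosinophil-like and 10984 in neutrophil-like cells, whose intervals overlap. Fosb differed from this order. It was highest in conventional DC-like cells at 909 and 1083 CPM, and the control value overlapped that of neutrophil-like cells, 893. Jun was highest in monocyte/macrophage-like cells, at 901 and 766 CPM, against 396 and 254 in neutrophil-like cells, and the control interval overlapped that of conventional DC-like cells, 875, so that the usual partner of Fos did not share its leading class. Fosl1, a subunit known from tumor cells, was highest in melanoma-like cells at 106 and 264 CPM (254 and 270 without the upper limits). It stood at 2.36 and 2.03 in monocyte/macrophage-like cells and at 0 in B-like cells of both libraries. Fosl2, Jund and Atf3 were highest in neutrophil-like cells of the control library, and the interval of Jund overlapped that of T-like cells and the interval of Atf3 that of conventional DC-like cells.

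The zinc finger factors split by cell class. Egr2, which acts in myeloid differentiation, was highest in neutrophil-like cells of the control library at 235 CPM, overlapping monocyte/macrophage-like cells, and in conventional DC-like cells of the NK cell-depleted library at 275. Egr1, a direct target of serum response factor, stood at 3914 CPM in control neutrophil-like cells and 947 in conventional DC-like cells, the next class. Egr3 was highest in neutrophil-like cells of the control library at 311 CPM and in conventional DC-like cells of the NK cell-depleted library at 389, where B-like cells, at 375, overlapped them. Klf2, a regulator of leukocyte quiescence and trafficking, was highest in neutrophil-like cells at 1017 and 1189 CPM, the second overlapping B-like cells at 1126. Its relative Klf4, a factor of monocyte differentiation, was lowest there, at 29.1 and 26.6 CPM, and highest in monocyte/macrophage-like cells at 857 and 1010. Klf6 was highest in migratory DC-like cells, at 1891 and 2563 CPM, the first overlapping monocyte/macrophage-like cells at 1749. The nuclear receptors, which act without a known ligand, marked other cells. Nr4a2 was highest in the NK-like class of control cells at 963 CPM, against 425 in conventional DC-like cells, and Nr4a3 was highest in migratory DC-like cells at 972 and 1582 CPM.

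The feedback regulators act on the signal itself. Dusp1, a phosphatase that inactivates stress kinases, stood at 8510 and 11978 CPM in neutrophil-like cells, 2816 and 4134 in monocyte/macrophage-like cells, and 132 and 127 in melanoma-like cells. Btg2, which restrains proliferation and promotes mRNA deadenylation, stood at 5516 and 6288 CPM in neutrophil-like cells. Zfp36, which binds and destabilizes inflammatory mRNAs, stood there at 3577 and 4205. Dusp2, a phosphatase of MAP kinases, was highest in the NK-like class of control cells at 552 CPM, and no UMI of it was found in the melanoma-like cells kept, which allows up to 19.8 and 9.78 CPM. Dusp5, which acts on ERK in the nucleus, was at 658 CPM in neutrophil-like and 652 in the NK-like class of control cells, values whose intervals overlap. Ier2 and Ier5 were highest in neutrophil-like cells of the control library, at 1075 and 626 CPM, and in eosinophil-like cells of the NK cell-depleted library, at 1132 and 1886. Ier3 was highest in neutrophil-like cells among the named classes, at 2456 and 1573 CPM, and reached 5313 and 5683 in the unnamed cluster 16, whose leading genes included Cxcl3, Acod1 and Inhba. Over the named classes 16 of 24 immediate early genes were highest in neutrophil-like cells of the control library. The number was 7 among NK cell-depleted cells, where 7 others were highest in eosinophil-like cells, a class with 71 cells there and too few (17) in the control library for a level. The neutrophil-like cells were shallow, with a median of 1156 and 1296 UMIs, and eosinophil-like cells shallower, with a median of 636.0 in the NK cell-depleted library. Over both libraries 2725 genes had at least 50 UMIs in neutrophil-like cells, against 10517 in monocyte/macrophage-like cells. The share of all genes highest in neutrophil-like cells is not given here, so these counts only describe the 24 genes.

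The heat shock genes had another order. Hspa8, Hsp90aa1, Hsp90ab1, Hspe1 and Hspd1 were lowest in neutrophil-like cells in both libraries. Hspe1 and Hspd1 stood at 1207 and 627 CPM in control melanoma-like cells, against 262 and 163 in monocyte/macrophage-like cells and 29.1 and 24.3 in neutrophil-like cells. In the NK cell-depleted library the same genes stood at 1007 and 802 CPM in melanoma-like cells. Hsp90aa1 and Hsp90ab1, the cytosolic Hsp90 genes, were also highest in melanoma-like cells, at 1115 and 2791 CPM in the control library and 831 and 1943 in the NK cell-depleted library. The value of Hsp90ab1 in the NK cell-depleted library overlapped that of migratory DC-like cells, 1673. Hspa8, the constitutive Hsp70, was highest in conventional DC-like cells at 2040 and 1966 CPM. Dnaja1, a co-chaperone of Hsp70, was highest in T-like cells of the control library at 513 CPM and in eosinophil-like cells of the NK cell-depleted library at 1383.

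Of the inducible heat shock genes, Hspa1a and Hspa1b were highest in mononuclear phagocytes among the named classes. Hspa1a stood at 394 and 428 CPM in monocyte/macrophage-like cells, 374 and 382 in migratory DC-like cells, and 19.4 and 3.32 in neutrophil-like cells. Hspa1b stood at 530 and 527 CPM in monocyte/macrophage-like cells, 540 and 595 in migratory DC-like cells, and 14.6 and 13.3 in neutrophil-like cells. In melanoma-like cells Hspa1a rested on 2 and 1 UMIs and Hspa1b on 1 and 3. Hsph1 and Dnajb1, a nucleotide exchange factor and a co-chaperone for Hsp70, were highest in T-like cells of the control library at 95.8 and 110 CPM, the second overlapping NK-like cells at 89.3. The unnamed cluster 16 held 377 CPM of Hspa1a in the control library and 1326 in the NK cell-depleted library, and 673 and 2799 of Hspa1b, over 60 and 38 cells. Its closest class by markers was neutrophil-like, with 10 neutrophil markers above the other cells but 0 among its 10 leading genes. The low values of the named neutrophil-like class therefore do not extend to this cluster.

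**Figure D1:**
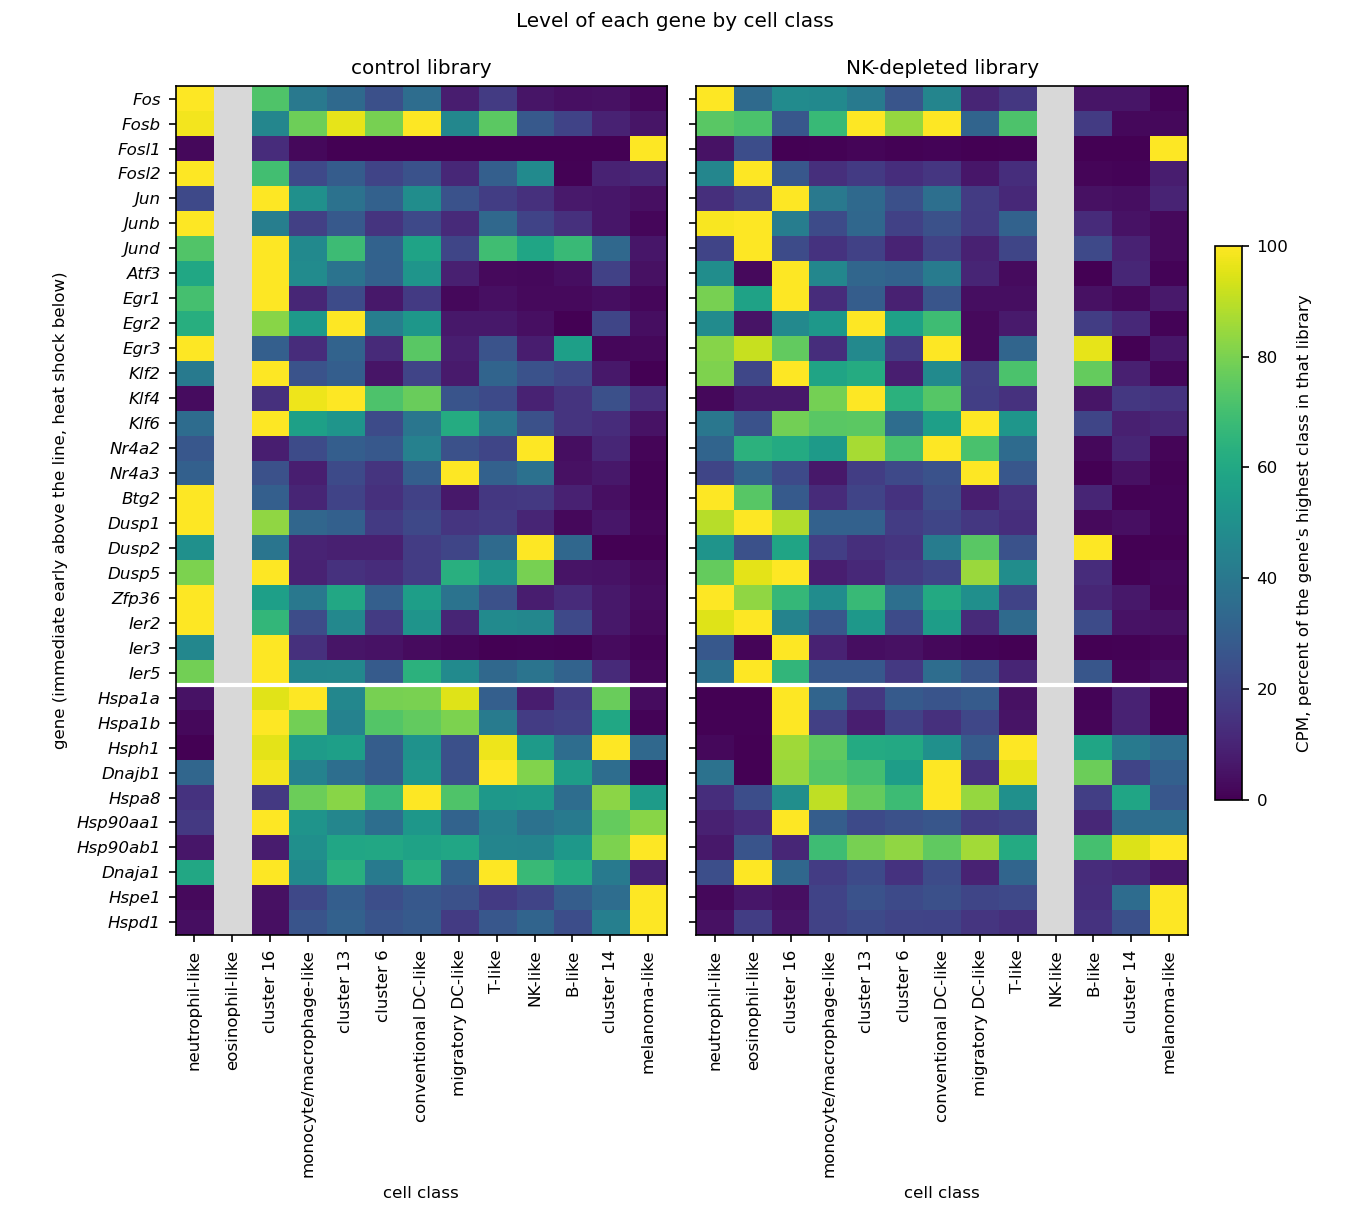
Level of each of the 34 genes (rows) in each cell class (columns), in percent of the gene's highest class in that library, control at left and NK cell-depleted at right, on a linear color scale from 0 to 100. Grey marks classes with fewer than 25 cells. Many immediate early genes above the line were bright in neutrophil-like cells, but not all, with Klf4 dim there. Hspe1 and Hspd1 at the bottom were brightest in melanoma-like cells.

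Across 19 clusters the levels of pairs of genes were compared as a description, since clusters of a library share depth and free RNA. Fos and Dusp1 had a Pearson r of 0.96 in the control library and 0.92 in the NK cell-depleted library. Hspd1 and Hspe1 had r of 0.96 and 0.90, and Hspa1a and Hspa1b 0.88 and 0.95. Hspa1a and Hspd1 had r of -0.02 and 0.01, so that this inducible and this mitochondrial member did not vary together over the clusters.

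Most immediate early genes were lower in the control library than in the NK cell-depleted library in monocyte/macrophage-like cells, and the heat shock genes as a group were not displaced. All 34 genes passed the minimum of 50 UMIs over both libraries in that class. The counting interval lay below 0 for 20 of 24 immediate early genes and above 0 for 2 of 24. Of all 10517 genes with at least 50 UMIs, 26.8% had an interval below 0 and 19.2% above. Intervals narrow with more UMIs, and most of the 24 genes held far more than 50, Fos 46442 and 56225. The shares of all genes were not matched for UMIs, here or in the other classes. The median log2 difference was -0.32 for the 24 immediate early genes, -0.01 for the 10 heat shock genes and -0.02 for all genes. Past 1.5-fold, 2 genes were lower in the control library and 0 higher, against 3.26% and 5.78% of all genes. These classes hold different cells in the libraries, since clusters 0 and 2 held more control cells (783 and 668, against 367 and 348) and clusters 1, 4 and 5 more NK cell-depleted cells (759, 422 and 463, against 342, 297 and 244). When the clusters were weighted equally, the immediate early median was -0.19 and no gene was lower past 1.5-fold.

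Nr4a2 and Dusp2 were the genes past 1.5-fold. Nr4a2 stood at 221 CPM in control cells against 356 in NK cell-depleted cells, a log2 difference of -0.69 [-0.75, -0.63]. Dusp2 stood at 55.2 and 93.9 CPM, a difference of -0.77 [-0.89, -0.64]. After every cell was thinned to 2000 UMIs, 24.6% [22.9, 26.2] of 2695 control cells and 35.0% [33.2, 36.8] of 2646 NK cell-depleted cells had a UMI of Nr4a2 (34.5% and 48.1% before thinning). In melanoma-like cells of the NK cell-depleted library, the class lowest in Nr4a2, 2.70% of 37 thinned cells had a UMI of it. The thinned cells exclude 306 control and 210 NK cell-depleted cells with fewer UMIs.

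Among the AP-1 subunits, Junb was lower in the control library, at 1726 against 2544 CPM, with a log2 difference of -0.56 [-0.58, -0.54]. Fosl2 differed by -0.51, Jund by -0.39, Atf3 by -0.30 and Fos by -0.22. Fosb, at 707 and 731 CPM, differed by -0.05 [-0.09, -0.01]. Jun went the other way, at 901 against 766 CPM, with a difference of 0.23 [0.20, 0.27]. Fosl1, with 37 and 33 UMIs, had an interval from -0.50 to 0.94. The zinc finger factors were lower in the control library by less: Klf2 differed by -0.45, Egr3 by -0.36, Klf4 by -0.24, Klf6 by -0.12 and Egr2 by -0.09, and the interval of Egr1 held 0, at 599 and 609 CPM.

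The feedback regulators had a median of -0.46 over 8 genes. Dusp1 stood at 2816 against 4134 CPM, a log2 difference of -0.55 [-0.57, -0.54], and Zfp36 at 1426 against 2045, a difference of -0.52 [-0.54, -0.50]. Ier5 differed by -0.50, Btg2 by -0.42, Dusp5 by -0.31 and Ier2 by -0.29. Ier3 was the exception, at 730 against 543 CPM, a difference of 0.43 [0.39, 0.47]. Nr4a3, the second nuclear receptor, stood at 81.1 against 102 CPM, a difference of -0.33 [-0.44, -0.23].

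Among the heat shock genes Hspe1 had the largest difference, at 262 against 203 CPM, a log2 difference of 0.37 [0.30, 0.44]. Its partner Hspd1 stood at 163 against 159 CPM, with an interval from -0.04 to 0.11. Hspa8 was lower in the control library, at 1583 against 1781 CPM (-0.17 [-0.19, -0.15]). Hspa1a differed by -0.12 [-0.17, -0.07] and its near copy Hspa1b by 0.01 [-0.04, 0.05]. Dnajb1 differed by -0.17 [-0.31, -0.03] and Hsp90ab1 by 0.05 [0.02, 0.08], and the intervals of Hsph1 and Dnaja1 held 0. Hsp90aa1, at 702 and 685 CPM, differed by 0.04.

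The related genes that are not among the 34 were read in the same cells. Of 36 other immediate early genes 32 had enough UMIs, with a median log2 difference of -0.19, and 4 were past 1.5-fold lower in the control library and 1 higher. Those lower were Nr4a1, the third gene of the Nr4a family, at 453 against 897 CPM (-0.99 [-1.03, -0.94]), Sik1 (-0.84), Csrnp1 (-0.76) and the clock gene Per1 (-0.68), and Gadd45g was higher, at 73.2 against 42.3 CPM. Of 36 other heat shock and co-chaperone genes 34 had enough UMIs, with a median of -0.07, and only Serpinh1 passed 1.5-fold, at 33 and 19 UMIs with an interval that held 0. Of 21 upstream kinases and factors 0 passed 1.5-fold, and their median was -0.13.

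Other measures also moved with the library in these cells. The median mitochondrial share was 2.54% in the control library and 3.64% in the NK cell-depleted library. Malat1, a nuclear RNA, stood at 29632 against 16695 CPM. The hemoglobin gene Hbb-bs stood at 3.07 against 79.0 CPM, and all 4 blood genes with enough UMIs were past 1.5-fold lower in the control library. The part of RNA quality, blood and free RNA in the differences of the 34 genes was not tested.

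**Figure D2:**
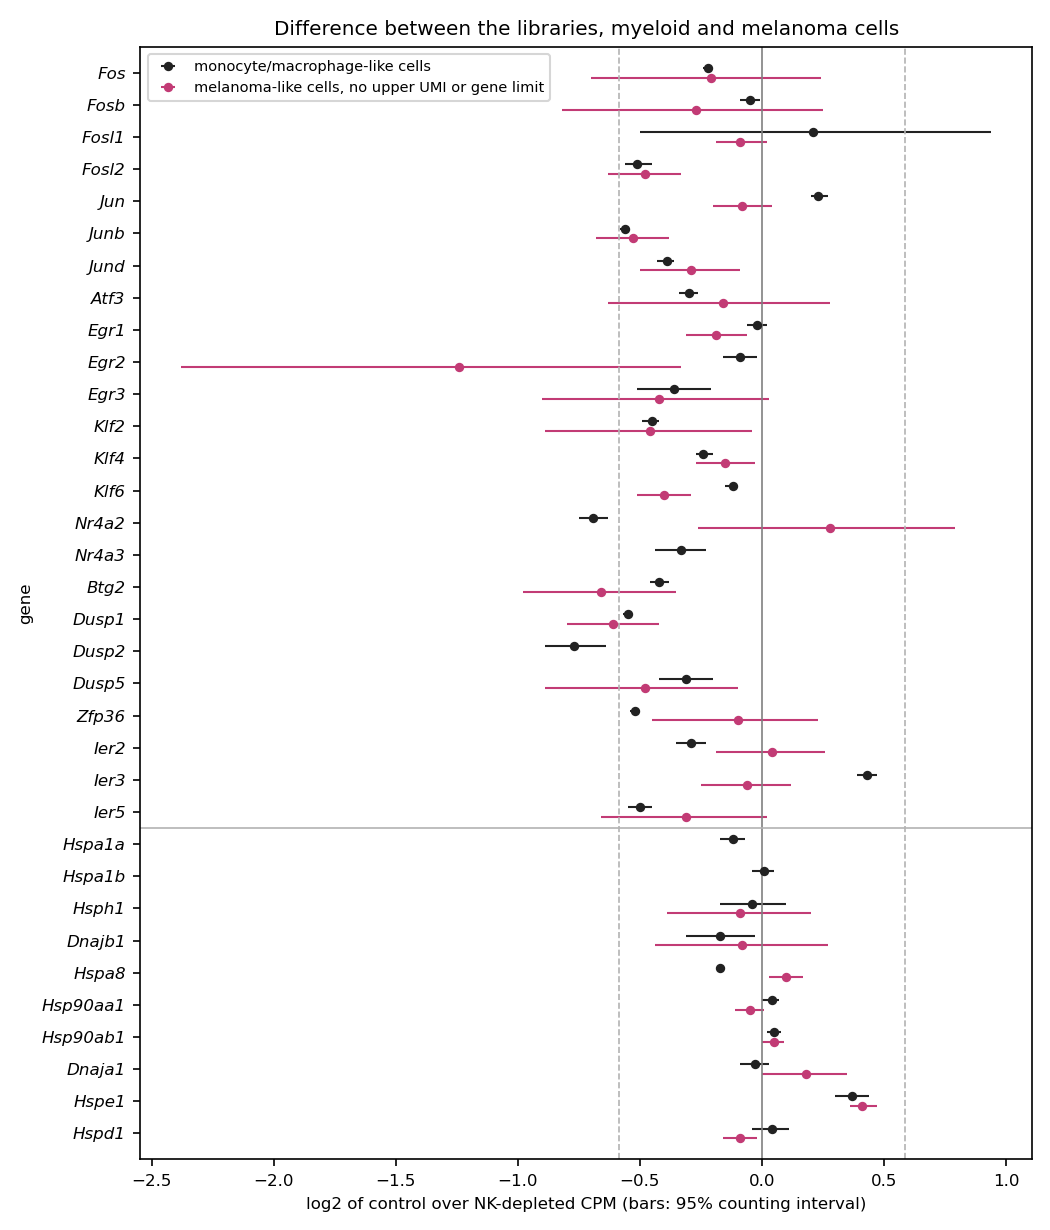
Log2 of control over NK cell-depleted CPM for each gene in monocyte/macrophage-like cells (black) and in melanoma-like cells with no upper limit on UMIs or genes (pink), with 95% counting intervals as bars, dashed lines at 1.5-fold and points shown for genes with at least 50 UMIs. Most immediate early genes lay left of 0 in both, with Jun at 0.23 and Ier3 at 0.43 on the right in the black points only.

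The direction was carried by some genes through every cluster and by others through few. Dusp1 and Jund had an interval below 0 in 8 of 8 monocyte/macrophage-like clusters, Dusp1 from -0.80 in cluster 10 to -0.16 in cluster 12. Fosl2, Junb and Zfp36 had an interval below 0 in 7 of 8. Egr1, which did not differ in the summed class, had an interval above 0 in 6 of 8 clusters and below 0 in 1, from -0.58 in cluster 0 to 0.75 in cluster 1. Ier2, which was lower in the summed class, had an interval above 0 in 3 clusters and below 0 in none. Nr4a2 was below 0 in 5 clusters and above in 1, and Dusp2 below 0 in 3, with -2.31 in cluster 10 resting on 15 and 59 UMIs. Jun was above 0 in 5 of 8. The cluster medians of the immediate early genes ranged from -0.33 in cluster 10 to 0.00 in cluster 12.

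For the heat shock genes the clusters went in different directions, which the class sum did not show. The median over the 10 genes was -0.68 in cluster 12, a cluster led by Slc7a2 and Mmp12, and -0.25 in cluster 2, led by Gpnmb and Mmp13. It was 0.28 in cluster 4, led by Ccl8 and Lyve1, and 0.19 in cluster 1, led by Ly6c2 and Ms4a4c. In cluster 12 Hspa1a stood at 420 CPM in control cells against 939 in NK cell-depleted cells, a log2 difference of -1.16 [-1.31, -1.01]. Hspa1b stood there at 626 and 1361 CPM, Hsph1 at 71.8 and 157, and Dnajb1 at 42.5 and 86.6, and 6 of 10 heat shock genes were past 1.5-fold lower in the control library. In cluster 4 Hspa1a stood at 464 and 345 CPM, a difference of 0.43, and in cluster 1 Hspa1b at 420 and 286, a difference of 0.55. Hspe1 kept to 1 side, with an interval above 0 in 6 of 8 clusters and none below. In both libraries Hspa1a, Hspa1b, Hsph1 and Hsp90aa1 were highest in cluster 2, at 695, 1104, 121 and 1277 CPM in the control library. Egr1, Egr2, Egr3, Klf2 and Klf6 were highest in cluster 4 in both libraries, Egr1 at 1662 and 1426 CPM against 213 and 148 in cluster 11.

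**Figure D3:**
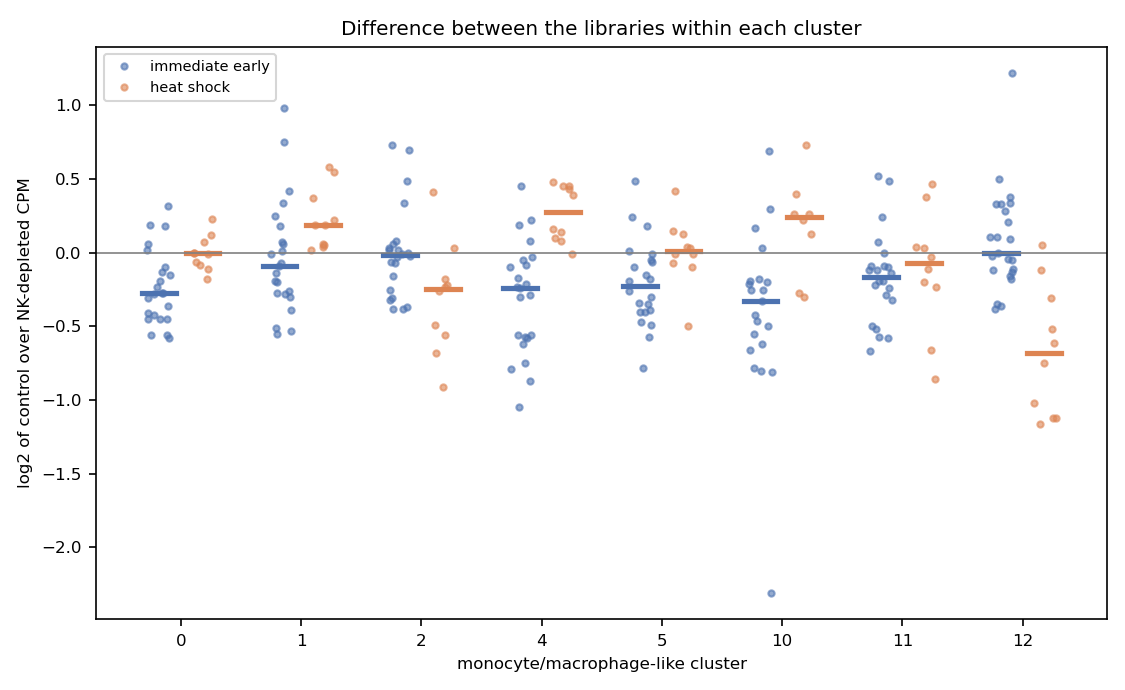
Log2 of control over NK cell-depleted CPM of each gene (points) within each of the 8 monocyte/macrophage-like clusters, immediate early genes in blue and heat shock genes in orange, with the median of each set as a bar. Only genes with at least 50 UMIs in the cluster are drawn. The heat shock median lay at -0.68 in cluster 12 and 0.28 in cluster 4.

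The summed immediate early UMIs were also counted cell by cell, over all clusters of the class pooled, which the libraries held in different proportions. In monocyte/macrophage-like cells thinned to 2000 UMIs, the 24 genes together gave a mean of 37.6 UMIs (SD 26.7 over 2695 cells, median 33.0) in the control library and 46.4 (SD 26.9 over 2646 cells, median 43.0) in the NK cell-depleted library. Cells with at least 50 such UMIs made up 27.5% and 41.2%. The 10 heat shock genes gave a mean of 11.1 and 11.3. The 4 inducible heat shock genes were unevenly spread, since 52.1% and 54.8% of cells had none of their UMIs, while the 5% of cells highest in Hspa1a held 44.3% and 45.0% of its UMIs. Mean immediate early loads in the control library were 41.4, 39.4, 29.1 and 25.9 UMIs in cells with 0 to 2, 2 to 4, 4 to 6 and 6 to 10% mitochondrial UMIs. The NK cell-depleted means exceeded them by 6.54, 10.6, 14.8 and 10.7 UMIs over the same ranges. In the NK cell-depleted library the mean was highest at 2 to 4%, not in the lowest range, and lowest at 6 to 10%.

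**Figure D4:**
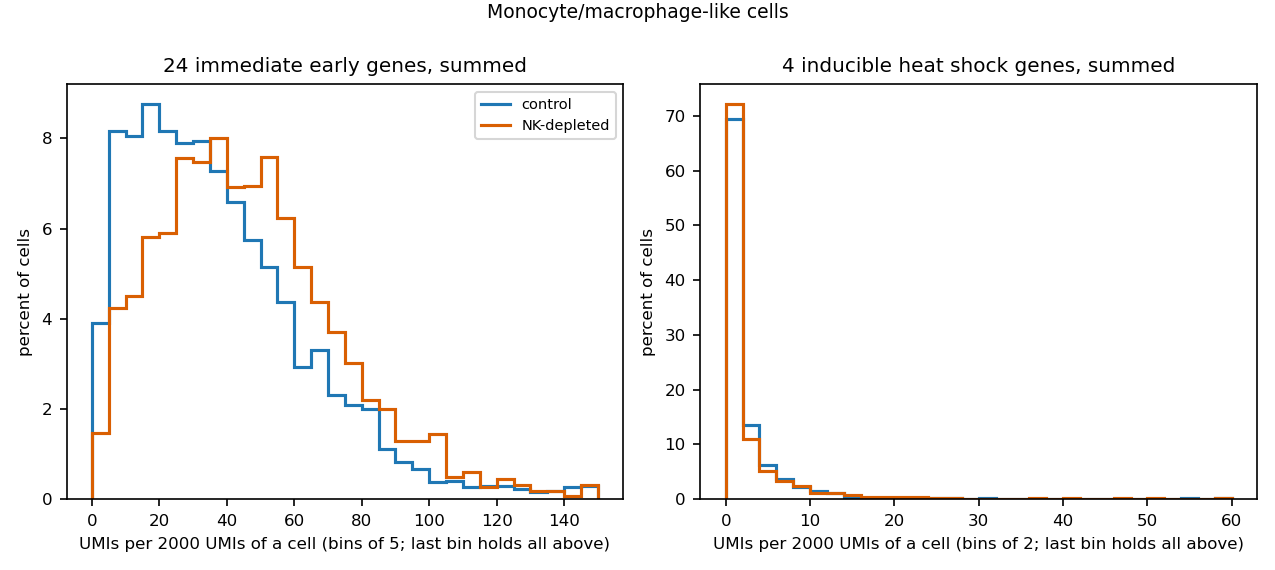
Share of monocyte/macrophage-like cells (percent) by the number of UMIs of the 24 immediate early genes (left, bins of 5) and of the 4 inducible heat shock genes (right, bins of 2), per 2000 UMIs of a cell, control in blue and NK cell-depleted in orange. The left curves had medians of 33.0 and 43.0, and the first bin of the right curves (fewer than 2 UMIs) held 69.4% and 72.1% of cells.

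The added melanoma cells served as the reference for handling after the sort, and not for the digestion, which they did not meet. Few were left after the upper limits, 53 control and 71 NK cell-depleted cells with a median of 1687 and 2009 UMIs. Their median mitochondrial share was 0.895% and 1.10%, against 4.35% and 5.06% without the upper limits. The leukocyte gene Tyrobp stood at 66.0 and 16.3 CPM in them, against 6.30 and 2.66 without the limits. Without the upper limits there were 161 and 298, with a median of 21485 and 24834 UMIs, so the deeper set was used beside the kept one. Of the 18 melanoma markers 11 were above monocyte/macrophage-like cells in each library, among them Sparc, Cald1 and Crabp1, and the pigment cell genes Pmel, Mlana, Dct, Tyrp1, Tyr and Sox10 were at 0, so the class is named from its other markers, some of which the study named on these samples. Ptgs2, a gene deleted in the tumors, stood at 507 and 777 CPM in the deeper set. Tumor cells that escaped the sort could not be told from the added ones. Lyz2, a monocyte and macrophage gene, stood at 13.6 and 16.2 CPM in the deeper set, which was 0.279% and 0.270% of its level in monocyte/macrophage-like cells. Fos stood at 0.465% of its monocyte/macrophage-like level in both libraries, and Hspa1a at 0.492% and 0.218%, and 10 leukocyte transcripts at a median of 0.415% and 0.302%, up to 2.92% and 20.3% (S100a8). Dusp1 stood at 2.74% and 2.85%, Junb at 6.96% and 6.80%, Jun at 22.5% and 28.0%, and Egr1 at 31.8% and 35.6%.

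In the deeper melanoma-like set the interval lay below 0 for 11 of 22 genes with enough UMIs and above 0 for none, against 29.0% and 6.10% of 9419 genes. The other 11 were within counting error, Nr4a2 (0.28) and Ier2 (0.04) among them. The median was -0.28, near the -0.18 of all genes. Dusp1 stood at 77.2 and 118 CPM (-0.61 [-0.80, -0.42]), Btg2 at 28.1 and 44.4 (-0.66 [-0.98, -0.35]) and Egr2 at 2.66 and 6.52 (-1.24 [-2.38, -0.33]), the 3 past 1.5-fold, against 6.93% of all genes lower and 1.05% higher past that size. Junb stood at 120 and 173 CPM (-0.53) and Fosl2 at 131 and 182 (-0.48). Hspe1 stood at 1243 and 933 CPM, a log2 difference of 0.41 [0.36, 0.47], beside 0.37 in monocyte/macrophage-like cells. The median of the 8 heat shock genes was 0.00. In the 53 and 71 melanoma-like cells within the limits only 9 immediate early genes had 50 UMIs. Of these, 8 were past 1.5-fold lower in the control library and 0 higher, against 28.6% and 8.86% of 1185 genes, with a median of -0.78, against -0.22 for all genes. With cells called 1 by 1 in place of clusters, the median turned to 0.16 over 20 genes. Other genes were lower with them: the 5 RNA quality genes with enough UMIs all had intervals below 0 (median -0.57), and summed melanoma markers stood at 3965 and 5698 CPM, Hmga2 at 290 and 746, Tead1 at 191 and 466 and Ptgs2 at 284 and 874. Their part in the result was not tested. Egr1 stood there at 106 and 323 CPM (-1.57 [-2.47, -0.84]), Jun at 72.6 and 186 and Fosl1 at 106 and 264. Klf6 (-0.81), Junb (-0.76) and Fosl2 (-0.75) also had intervals below 0, while those of Jund and Klf4 held 0. Of the 5 heat shock genes, Hspa8 was past 1.5-fold higher, at 1122 and 535 CPM, and the median was 0.43.

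Set against the deeper melanoma-like cells gene by gene, the difference in monocyte/macrophage-like cells had a median excess of 0.03 over 22 immediate early genes and -0.02 over 8 heat shock genes on the log2 scale. The median difference over all genes was -0.02 in monocyte/macrophage-like cells and -0.18 in the deeper melanoma-like cells. The excess was not corrected for this gap between the classes. At or below the highest share of a leukocyte transcript in these melanoma-like cells were 10 of the 34 genes in the control library, Dusp1 and Zfp36 among them, and 19 in the NK cell-depleted library, with Junb, Btg2, Nr4a2 and Ier2 added. That highest share was S100a8, which stood at only 49.7 and 47.7 CPM in monocyte/macrophage-like cells. Apart from S100a8 and S100a9, the highest leukocyte shares were 0.837% (Coro1a) in the control library and 0.434% (Ptprc) in the NK cell-depleted library. Dusp1, Zfp36, Junb, Btg2, Nr4a2 and Ier2 lay above those shares in both libraries. The part of free leukocyte RNA in the differences from the reference was not tested. Dusp1 exceeded the melanoma-like value by 0.05 [-0.13, 0.24], Junb by -0.03 [-0.19, 0.12], Fosl2 by -0.03 [-0.18, 0.12] and Hspe1 by -0.04 [-0.13, 0.04], all within counting error. Nr4a2 stood apart at -0.96 [-1.47, -0.46], Zfp36 at -0.42 [-0.75, -0.09] and Ier2 at -0.33 [-0.56, -0.10], lower in the monocyte/macrophage-like cells. Jun (0.32), Klf6 (0.28), Ier3 (0.49), Egr1 (0.16) and Egr2 (1.15) stood apart in the other direction. Of the heat shock genes, Hspa8 (-0.27) and Dnaja1 (-0.21) lay below the melanoma-like value and Hspd1 (0.13) and Hsp90aa1 (0.09) above it. Against the kept melanoma-like cells the immediate early median was 0.49 over 9 genes and the heat shock median -0.39 over 5, so the reference changed with the limits on cells. Whether handling or the loss of NK cells moved the shared genes cannot be told apart, since the groups are 1 library each.

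Conventional DC-like cells, 242 and 314, were shifted in the same direction. Their immediate early median was -0.45 over 23 genes. Past 1.5-fold, 5 were lower in the control library and 0 higher, against 5.80% and 5.27% of all genes. Dusp2 stood at 98.6 and 213 CPM (-1.11 [-1.40, -0.83]), Egr3 at 231 and 389 (-0.75), Dusp5 at 145 and 231 (-0.67), Nr4a2 at 425 and 654 (-0.62) and Dusp1 at 1838 and 2811 (-0.61). Jun was again higher in the control library, at 875 and 690 CPM, as was Hspe1, at 333 and 245. The near copies Hspa1a and Hspa1b parted, with -0.13 [-0.31, 0.04] and 0.41 [0.26, 0.56].

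Migratory DC-like cells, 67 and 50, had an immediate early median of -0.59 over 21 genes. Past 1.5-fold, 11 were lower and 1 (Ier3, whose interval held 0) higher, against 11.4% and 7.42% of all genes. Dusp2 stood at 115 and 375 CPM (-1.70 [-2.25, -1.18]), Nr4a2 at 240 and 466 (-0.95), Dusp5 at 516 and 966 (-0.91) and Nr4a3, which these cells hold at the highest level, at 972 and 1582 (-0.70). Jund (-0.87), Junb (-0.78), Dusp1 (-0.74), Zfp36 (-0.62), Klf2 (-0.62) and Btg2 (-0.59) were also among the 11, as was Atf3, whose interval held 0. The unnamed cluster 6, led by Cdh1, Mgl2 and Ccl17, had a median of -0.46 over 23 genes, with 7 immediate early genes and Hsph1 past 1.5-fold lower and 0 higher, against 6.58% and 5.54% of all genes. Nr4a3 led there, at 146 and 351 CPM (-1.26 [-1.44, -1.08]), followed by Dusp5 (-0.95), Egr3 (-0.84), Nr4a2 (-0.81), Dusp1 (-0.69), Dusp2 (-0.69), Hsph1 (-0.63) and Junb (-0.62).

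In neutrophil-like cells the median was -0.06 over 22 immediate early genes. The interval lay below 0 for 7 of 22 and above 0 for 2, against 10.1% and 9.50% of all genes. Summed, the feedback regulators stood at 22694 and 26949 CPM. Past 1.5-fold, 0 were lower and 2 higher in the control library, against 6.53% and 6.90% of all genes. These were Jun, at 396 and 254 CPM (0.64 [0.31, 0.97]), and Ier3, at 2456 and 1573 (0.64 [0.51, 0.77]). Dusp1 was lower here too, at 8510 and 11978 CPM (-0.49 [-0.55, -0.43]), while Fos had an interval from -0.06 to 0.07.

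In T-like cells genes of both groups differed. The interval lay below 0 for 9 of 20 immediate early genes and above 0 for 4, and above 0 for 5 of 10 heat shock genes and below 0 for none, against 8.73% of all genes below and 10.6% above. The medians were -0.10 and 0.38. Past 1.5-fold, 4 of 10 heat shock genes were higher in the control library and 0 lower, and 1 of 20 immediate early genes (Egr3, -0.67) was lower, against 8.71% higher and 6.03% lower among all genes. Hspa1a stood at 119 and 59.2 CPM on 76 and 33 UMIs, a ratio of 2.02 [1.32, 3.13]. Hspa1b stood at 279 and 151 CPM (0.89 [0.51, 1.28]), Hspd1 at 171 and 108 (0.66 [0.20, 1.15]) and Dnajb1 at 110 and 71.8 (0.61 [0.03, 1.21]). Thinned to 2000 UMIs, 13.8% [8.88, 20.2] of 159 control cells and 6.25% [2.90, 11.5] of 144 NK cell-depleted cells had a UMI of Hspa1a (13.9% and 7.24% before thinning), and these intervals overlap. In NK-like cells, also lymphocytes, the share was 1.97% of 304 thinned control cells. The 5% of control T-like cells highest in Hspa1a held 65.8% of its UMIs, and those of the NK cell-depleted library 87.9%. Dusp2 and Jun were higher in control T-like cells, each by 0.57, as were Ier5 (0.45) and Ier2 (0.39). Nr4a3 (-0.52), Klf2 (-0.41), Dusp5 (-0.40), Jund (-0.35), Dusp1 (-0.27), Fosb (-0.20), Junb (-0.17) and Klf6 (-0.16) were lower.

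**Figure D5:**
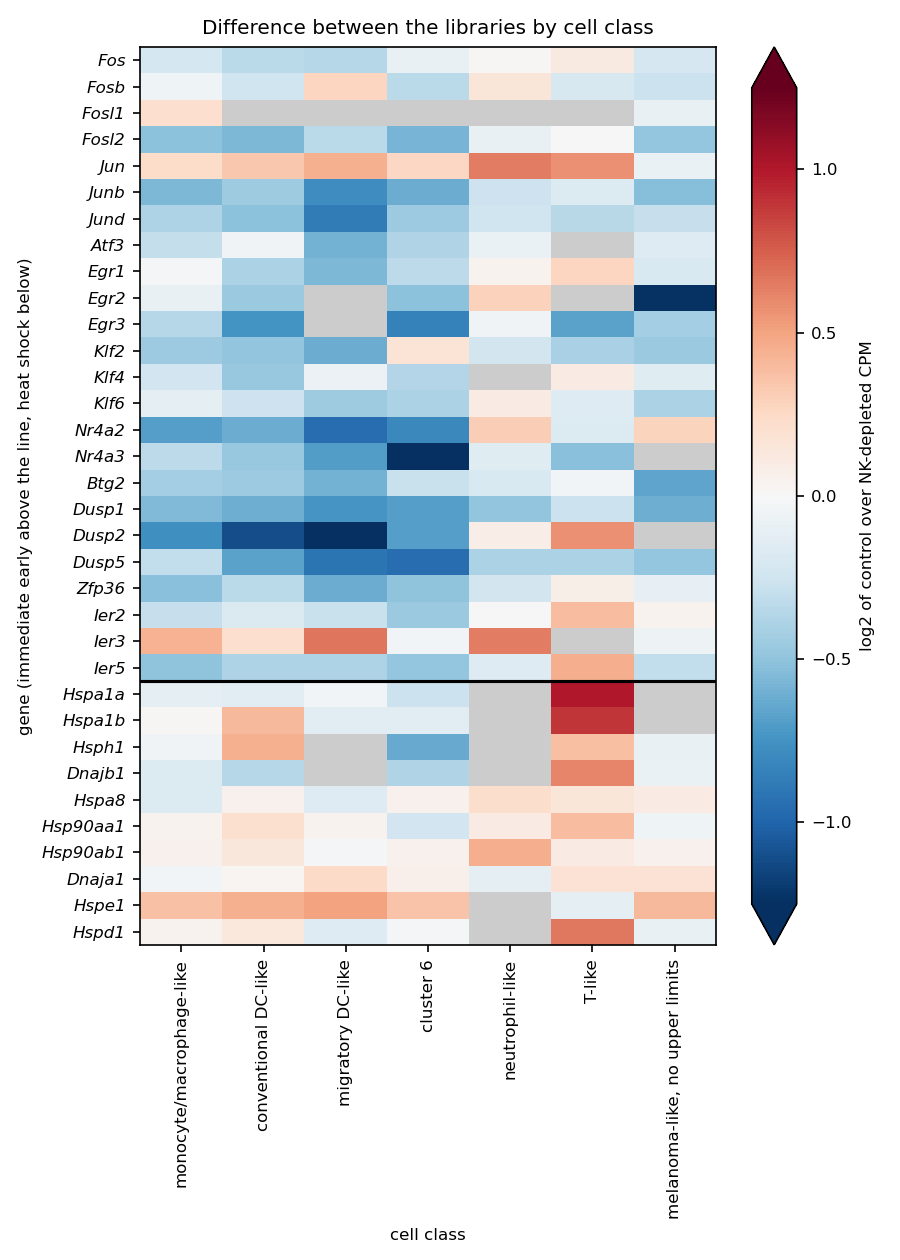
Log2 of control over NK cell-depleted CPM for each gene (rows) in 7 cell classes (columns), blue where lower in the control library, red where higher, grey where the gene had fewer than 50 UMIs, on a linear color scale. The melanoma-like column is the set without upper limits, and in it and the other 6 columns Dusp1 was blue, with Jun red in the 6 leukocyte columns.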

How the data were processed

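The deposited gene count matrices of both libraries (UMI counts, Chromium 3′ v3) were used. The authors made them with Cell Ranger (3.0.2 in the matrix header) on mm10, after 11 rounds of cDNA amplification and an index PCR of 14 cycles, and kept barcodes called as cells. A deposited normalized table was not used. The member genes, lists and cell markers were chosen with earlier results of these data known.

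Cells were kept with the limits the study's methods state, without removal of doublets, since Scrublet called 0 and 3 cells. Cells were clustered in scanpy 1.11.5 (2000 variable genes without the members and related lists, 15 components, 20 neighbors, Leiden resolution 1) and named from markers. Counts were summed per class and library, 0.5 UMI was added for log2 ratios, and genes with at least 50 UMIs were compared. A gene was called past 1.5-fold. Intervals are exact (Poisson, conditional binomial, Clopper-Pearson, 95%) and cover counting error only. Levels needed 25 cells, and ratios 50 cells in each library. With 1 library per group no test was run. The ratio code was tested on simulated data. All members were accounted for, and members past 1.5-fold with an interval without 0 were named, at most 10 in each direction and class. Of each other gene list, at most 4 genes were named in each direction. Promoters came from RefSeq, and gene models from GENCODE M21. The members with no promoter entry (7) were Fosl1, Egr1, Egr3, Ier2, Hspa8, Hsp90aa1 and Hsp90ab1.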

Additional observations from a re-analysis of the deposited data

How the results depend on the processing

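Each group is 1 library, so no setting can tell a library from a treatment, and depth limits the kept melanoma-like cells and the rarer genes of neutrophil-like cells. No paired analysis was possible because each group has 1 sample and no test was run. The immediate early median in monocyte/macrophage-like cells kept its sign under all 22 alternatives, from -0.43 to -0.19, the last when clusters were weighted equally. The heat shock median there (-0.01) had no stable sign. It was 0.01 with median ratio scaling, 0.09 with no upper limits, 0.06 at 5% mitochondrial UMIs, 0.04 with cells called 1 by 1 and 0.03 with thinned cells. It was -0.14 with clusters weighted equally and, chosen after seeing the data, 0.08 without cluster 0, -0.11 without cluster 1, -0.11 without cluster 4 and 0.07 without cluster 12. The immediate early median in kept melanoma-like cells (-0.78) turned to 0.16 with cells called 1 by 1, and the heat shock median (0.43) was 0.00 with no upper limits. The count past 1.5-fold lower (2) was 4 with no upper limits, 5 at resolution 2, 4 with cells called 1 by 1, 0 with clusters weighted equally and 1 without cluster 5, and the count higher was 0 in all 22. Immediate early genes highest in NK cell-depleted neutrophil-like cells (7) were 11 with cells called 1 by 1. The causes of these moves were not tested. Leaving out the 5% of cells with the highest doublet scores replaced the planned removal of called doublets. Settings that left a class with fewer than 25 cells gave no value.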

Other observations

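The unnamed clusters 13 and 14, both led by Retnla and Lyz1, had immediate early medians of -0.30 over 23 genes and 0.07 over 11, and heat shock medians of 0.14 and 0.45, against -0.05 for all genes in each. In cluster 13, with 108 control and 167 NK cell-depleted cells, Nr4a2 stood at 288 and 568 CPM, a log2 difference of -0.98. Egr3 differed there by -0.88 and Dusp1 by -0.68, while Ier3 (0.49) and Hspe1 (0.52) were higher in the control library. In cluster 14, with 79 and 61 cells, Btg2 stood at 235 and 45.5 CPM, a difference of 2.27, Egr1 at 211 and 98.6 (1.06), Klf6 at 387 and 228 (0.75) and Hspa1a at 304 and 129 (1.21), each with a counting interval above 0. The median UMI count was 2317 and 2013 a cell in cluster 14 and 9901 and 9695 in cluster 13.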
